A study of Mus musculus with 6 samples.

Results

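White fat markers and adipokines were examined in brown adipose tissue (BAT) of mice lacking the microRNA miR-22. The group holds 10 genes, *Lep*, *Retn*, *Wfdc21*, *Adipoq*, *Cfd*, *Agt*, *Hoxc8*, *Hoxc9*, *Hoxc10* and *Sfrp5*, out of 23462 genes with a matched probe. The 10 genes were chosen from earlier KO and WT results of these same arrays, so their differences are given as a description and without p-values. Every probe whose RefSeq accession mapped to 1 of the 10 symbols was taken, which gave 12 probes: 2 each for *Retn* and *Cfd* and 1 for each other gene. BAT came from 3 wild-type (WT) and 3 miR-22 knockout (KO) male mice, all 8 weeks old. Each mouse was hybridized to its own Agilent array with 1 dye. The knockout was global, from a line obtained from the Jackson Laboratory, so miR-22 was missing from every cell of the tissue and from the rest of the body. The strain and the housing temperature of these 6 mice are not given in the sources used here, and mice are numbered in label order within each genotype.

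Brown fat burns lipid to make heat through Ucp1 in its mitochondria, whereas white fat stores lipid and signals to other organs through secreted proteins called adipokines. Leptin (*Lep*) reports fat stores to the brain and is made mainly by white adipocytes. Adiponectin (*Adipoq*) and adipsin (*Cfd*) come from white and brown adipocytes alike. Brown fat that loses its heat-making character and takes on large lipid droplets is called whitened. The *Hoxc* genes encode transcription factors that mark position along the body axis, and *Hoxc8*, *Hoxc9* and *Hoxc10* are known as more active in white depots than in interscapular brown fat.

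The missing regulator is shown because the 2 genotypes differ by it. Both mature arms of mouse miR-22 from RefSeq (GRCm38.p6, plus strand) are printed 5′ to 3′, with the seed, bases 2 to 8, in capitals. The first lies at chr11:75463772-75463793 and the second at chr11:75463734-75463755.
mmu-miR-22-3p: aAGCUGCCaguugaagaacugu
mmu-miR-22-5p: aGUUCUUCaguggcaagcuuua
No mature miRNA was measured by these arrays. The host transcript *Mir22hg* had 1 probe, with scaled log2 signals of 1.20, 1.69 and 1.22 in WT and 2.02, 2.11 and 2.23 in KO mice. All KO mice were above all WT mice (0.75 ± 0.19 (SE), limma, adjusted p = 0.136). The place of this probe relative to the deleted part is not known here, so it does not check the genotype labels.

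Values are scaled log2 signals: the background-subtracted spot intensity divided by the 75th percentile of its own array, as log2. A value of 0 is thus a spot at that percentile. A value compares mice for 1 probe and cannot be set against another probe. The scanner software marked 4.87 to 17.1% of the spots per array as non-uniform or outlying, most on WT mouse 3 and KO mouse 1, and 55.8 to 66.5% of the spots were well above background, fewest on KO mouse 1. Marked spots were left out of the fit. Testing was limited to the 31240 probes with 2 or more unmarked values per genotype that stood well above background on 3 or more arrays. At an unadjusted p under 0.05, limma called 6.73% of the tested probes lower and 9.7% higher in KO mice, and 0.109% passed after adjustment. The higher share of the calls was 59.0%, but it was 40.3% after quantile normalization, 41.7% after normexp background correction, 38.8% in the authors' processed values, 72.1% without a filter on dim probes and 74.9% with the slide row as a block.

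Of the 12 probes of the group, 8 probes of 7 genes were tested. The other 4 were 1 probe of *Adipoq* and 2 of *Cfd*, which had too many marked spots, and the *Hoxc10* probe, which was below background on all 6 arrays. At an unadjusted p under 0.05, 1 of the 8 probes was higher in KO mice (*Wfdc21*), beside 9.7% of all probes, and 0 were lower, beside 6.73%. None passed after adjustment, beside 0.109% of all probes. Nothing is read from these shares because this contrast chose the genes. Of the 6 tested probes with 6 unmarked values, 1 had every KO mouse above every WT mouse, as 13.9% of all complete probes did, and 0 had every KO mouse below every WT mouse, as 11.7% did. Over the 7 genes tested, with the brightest probe for *Retn*, the median difference was 0.28 on the log2 scale, against -0.03 over all 14712 genes tested. This median is a description too, since the same contrast chose the genes. In whole tissue, a difference can come from the number of cells of a type or from the RNA in each cell, and these cannot be told apart.

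**Figure D1:**
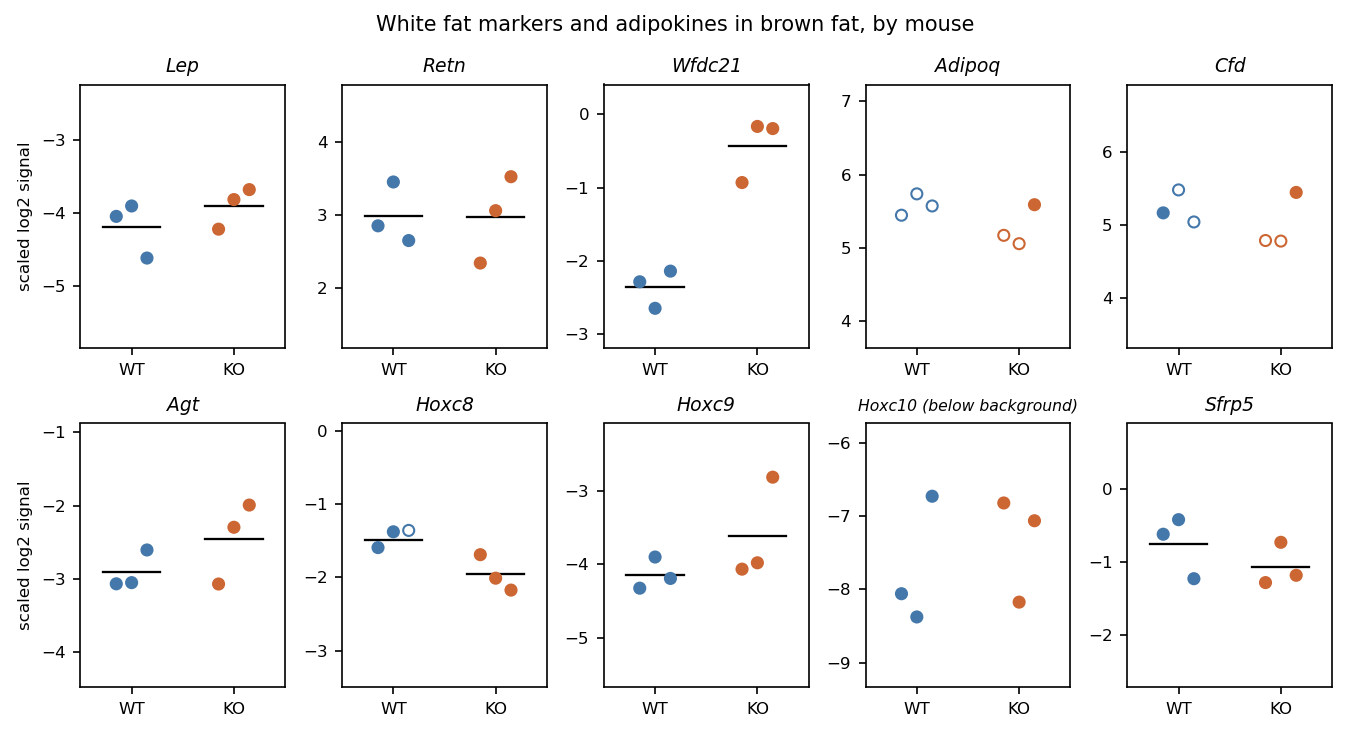
Scaled log2 signal (vertical axis) of the brightest tested probe of each gene, or of the first probe where none was tested, in WT (blue) and KO (orange) mice. Each point is 1 mouse, drawn from left to right as mouse 1 to 3, open points are spots the scanner software marked, horizontal bars are means of at least 2 unmarked values, and every panel spans the same log2 range. *Wfdc21* shows the KO mice at -0.93 to -0.16 and the WT mice at -2.65 to -2.14, while *Lep*, *Retn*, *Agt*, *Hoxc9* and *Sfrp5* overlap.

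*Wfdc21* showed the widest gap between the genotypes. It encodes a small protein of the family with a whey acidic protein (WAP) domain and is listed here among the white fat markers. Its scaled log2 signal was -2.28, -2.65 and -2.14 in WT and -0.93, -0.16 and -0.19 in KO mice. The lowest KO mouse, KO mouse 1, lay 1.21 above the highest WT mouse. The group means were -2.36 ± 0.26 (SD, n = 3) in WT and -0.43 ± 0.43 (SD, n = 3) in KO mice, a difference of 1.93 ± 0.26 (SE), or 3.80-fold. Under the alternatives the difference ran from 1.71 to 2.18, a description only, since this contrast chose the gene.

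Leptin and resistin messages overlapped between the genotypes on their fully measured probes. *Lep* was dim but well above background on all 6 arrays, at -4.05, -3.91 and -4.62 in WT and -4.22, -3.82 and -3.68 in KO mice. KO mouse 1 lay below 2 of the 3 WT mice, so the genotypes overlapped. The mean difference of *Lep* was 0.28 ± 0.24 (SE). With the slide row as a block it was 0.71 ± 0.29 (SE) and was called higher, because the lowest value, WT mouse 3, was then the only WT mouse compared with the KO mice. The difference was 0.07 without WT mouse 3, 0.08 after quantile normalization and in the authors' processed values, and 0.02 with normexp.

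*Retn* encodes resistin, a secreted protein of mouse adipocytes. Its unmarked probe gave 2.85, 3.45 and 2.65 in WT and 2.35, 3.06 and 3.52 in KO mice. The lowest and the highest of the 6 values were both from KO mice, and the difference was -0.01 ± 0.34 (SE). The second *Retn* probe gave 2.57 and 3.10 in WT mice 1 and 2 and 3.30 and 3.29 in KO mice 2 and 3. The spots of WT mouse 3 (2.94) and KO mouse 1 (2.56) were marked. This probe differed by 0.46 ± 0.26 (SE) over the 4 unmarked values and by 0.18 ± 0.25 (SE) with all 6, so its size rested on which spots were used, and it was called higher after quantile normalization (0.65).

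*Adipoq* and *Cfd*, the messages of adiponectin and of the complement protease adipsin, were bright on all arrays but could not be tested. *Adipoq* read 5.45, 5.74 and 5.57 in WT and 5.17, 5.06 and 5.59 in KO mice, with every spot marked except that of KO mouse 3. KO mice 1 and 2 were below every WT mouse and KO mouse 3 was within their range. With marked spots kept, the difference was -0.31 ± 0.19 (SE). The first *Cfd* probe read 5.17, 5.48 and 5.04 in WT and 4.79, 4.78 and 5.45 in KO mice, and the second read 4.80, 5.40 and 5.04 in WT and 4.36, 4.51 and 4.93 in KO mice. On both probes the 2 low values were those of KO mice 1 and 2. With marked spots kept the *Cfd* differences were -0.22 ± 0.23 and -0.48 ± 0.23 (SE), each resting on 4 marked spots of 6, and none of these 3 probes was called.

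*Agt* encodes angiotensinogen, the precursor of angiotensin. It read -3.07, -3.05 and -2.60 in WT and -3.07, -2.29 and -1.99 in KO mice. KO mice 2 and 3 lay above every WT mouse, but KO mouse 1 was level with the lowest of them. The difference was 0.46 ± 0.30 (SE), 0.15 ± 0.42 (SE) with the slide row as a block, and 0.76 without KO mouse 1, when it was called higher.

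*Sfrp5*, a secreted protein that binds and blocks Wnt ligands, read -0.62, -0.42 and -1.23 in WT and -1.28, -0.73 and -1.18 in KO mice. WT mouse 3 sat among the KO mice. The difference was -0.31 ± 0.26 (SE), and it turned to 0.16 ± 0.30 (SE) with the slide row as a block, where WT mouse 3 was the WT mouse in the row of the KO mice.

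The 3 positional genes did not move together. *Hoxc8* read -1.59 and -1.38 in WT mice 1 and 2, with a marked spot of -1.36 in WT mouse 3, and the KO mice read -1.69, -2.01 and -2.17. All KO values were lower than all WT values, with a narrow gap, and the difference was -0.47 ± 0.22 (SE). *Hoxc8* was not called at the main setting but was called lower in 5 of 14 alternatives, among them marked spots kept (-0.51) and quantile normalization (-0.56). *Hoxc9* read -4.32, -3.90 and -4.19 in WT and -4.06, -3.98 and -2.81 in KO mice. KO mouse 3 stood apart and the other KO mice were within the WT range. The *Hoxc9* difference of 0.52 ± 0.34 (SE) was 0.12 without KO mouse 3. *Hoxc10* was not well above background in any mouse, so it has no fold change.

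**Figure D2:**
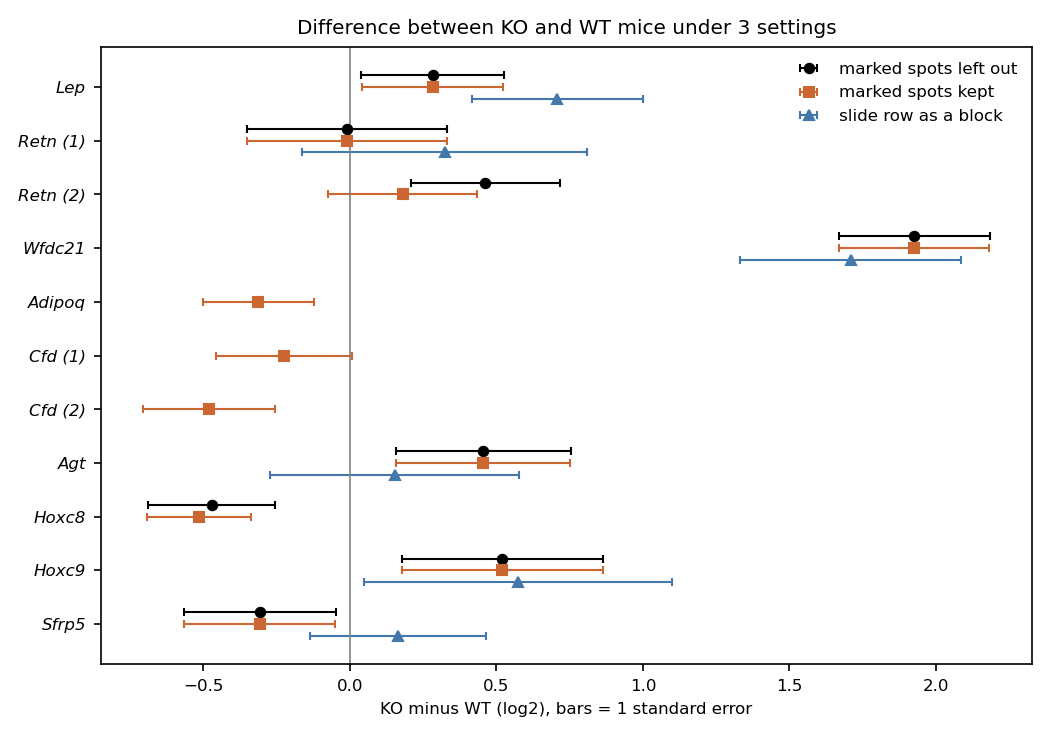
KO minus WT difference (log2, horizontal axis) of 11 probes, with bars of 1 standard error, with marked spots left out (black), marked spots kept (orange) and the slide row as a block (blue, where it could be fitted). Numbers 1 and 2 stand for the probes of *Retn* and *Cfd* in the order of the text. *Wfdc21* lies at 1.71 to 1.93, and *Sfrp5* crosses from -0.31 to 0.16 with the block.

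Differences among mice of the same genotype were of the same order as those between genotypes for most of these genes. KO mouse 3 had the highest value for 4 of the 7 genes tested (*Lep*, *Retn*, *Agt* and *Hoxc9*), and KO mouse 1 had the lowest for 3 (*Retn*, *Agt* and *Sfrp5*). The range among KO mice was 1.18 for *Retn*, 1.08 for *Agt* and 1.25 for *Hoxc9*, against 0.80, 0.46 and 0.42 among WT mice. The SD of *Hoxc9* among KO mice (0.70) was larger than that of 92.7% of all tested probes, and the median SD was 0.24. The array with the fewest spots above background was that of KO mouse 1, and its part in these values was not tested.

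Genes that act with these proteins were described next, each by its brightest testable probe. At an unadjusted p under 0.05, limma called 7.39% of all 14712 genes lower and 9.23% higher. Of 35 receptors and pathway partners, 29 were tested, 1 was lower and 3 were higher, with a median difference of -0.06 (-0.03 over all genes). *Ace*, the enzyme that cuts angiotensin I, was lower by 0.70 ± 0.19 (SE, limma, adjusted p = 0.156). *Agtr2*, an angiotensin receptor, was higher by 0.75 ± 0.21 (SE, limma, adjusted p = 0.167), but it was well above background in 2 mice of each genotype. The main angiotensin receptor *Agtr1a* differed by 0.16 ± 0.15 (SE). *Wnt11*, a ligand of the Wnt pathway, was higher by 0.51 ± 0.16 (SE, limma, adjusted p = 0.193) on its brighter probe and differed by 0.18 ± 0.21 (SE) on the other, which was not called. *Wnt5a*, the ligand that Sfrp5 binds, differed by -0.18 ± 0.17 (SE) on its brighter probe and by 0.33 ± 0.23 (SE) on the other, and neither was called.

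The receptors for leptin and adiponectin gave less clear values. The 1 *Lepr* probe above background differed by 0.46 ± 0.23 (SE) and was not called. *Adipor1* was called higher on its brightest testable probe (0.42 ± 0.16 (SE), limma, adjusted p = 0.253) and called lower on another (-0.53 ± 0.18 (SE), limma, adjusted p = 0.221), so it has no settled direction. Brighter *Adipor1* probes had too many marked spots to be tested. With marked spots kept they differed by -0.11 ± 0.15 and -0.06 ± 0.16 (SE). *Adipor2* likewise differed by -0.14 on its brighter probe and by 0.69 on the other, which was called higher. *Cdh13*, the cadherin that binds adiponectin, differed by -0.42 ± 0.26 (SE). In the complement pathway of adipsin, *C3* differed by -0.50 ± 0.23 (SE) and factor B (*Cfb*) by 0.08 ± 0.20 (SE), and neither was called.

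Of 26 other factors that fat secretes, 19 were tested, 3 were higher and 0 were lower in KO mice, with a median of 0.04. *Apln*, the peptide apelin, read -1.55, -2.21 and -1.93 in WT and -0.41, -0.91 and -1.25 in KO mice (1.04 ± 0.27 (SE), limma, adjusted p = 0.143). *Lcn2*, the lipocalin of inflammation, differed by 0.57 ± 0.16 (SE, limma, adjusted p = 0.163), and *Tnf*, an inflammatory cytokine, by 0.87 ± 0.25 (SE, limma, adjusted p = 0.172). On these probes of the 3 genes, named because they were called, every KO mouse was above every WT mouse, as for 13.9% of all complete probes. The other *Lcn2* probe overlapped between the genotypes (0.61 ± 0.29 (SE)) and was not called. The other *Tnf* probe differed by 1.30 ± 0.31 (SE) but was well above background in only 1 WT mouse. The median of this list was 0.23 after quantile normalization, 0.30 in the authors' processed values, 0.40 with the slide row as a block and -0.02 to 0.28 when each mouse was left out.

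Immune markers were measured beside these genes. Of 12 macrophage markers, 10 were tested, 3 were higher (*Fcgr1*, *Cx3cr1* and *C1qb*) and 0 lower, with a median difference of 0.32. The 2 with a difference below 0 were *Itgam* (-0.35 ± 0.21 (SE)) and *Csf1r* (-0.01 ± 0.24 (SE)), and neither was called. All 12 were above background on every array. The mean of the list ran from 0.63 to 0.85 in WT and from 0.84 to 1.23 in KO mice (two-sided exact permutation p = 0.2). Of 10 lymphocyte markers, 7 were tested, 2 were higher (*Cd4* and *Ptprc*) and 0 lower. The other probe of *Cd4* differed by 0.02 ± 0.19 (SE) and that of *Ptprc* by 0.28 ± 0.53 (SE), and neither was called. The mean of the list ran from -4.79 to -4.33 in WT and from -4.30 to -3.97 in KO mice (exact permutation p = 0.1, the smallest that 3 against 3 allows). The gap was narrow, and the highest mean was that of KO mouse 1, whose array had the fewest spots above background. All 10 markers entered this mean, but only 6 were above background on every array. The B cell marker *Ms4a1* was not above background on any array. The part of immune cells in *Wfdc21*, *Lcn2* and *Tnf* was not tested. *Fcgr1*, *Cx3cr1*, *C1qb*, *Itgam*, *Csf1r*, *Cd4* and *Ptprc* were named after their values were seen.

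Of 15 other genes described as enriched in white over brown adipocytes, 13 were tested, 1 was lower (*Rb1*, -0.42 ± 0.15 (SE), limma, adjusted p = 0.238) and 1 was higher (*Rbl1*, 0.76 ± 0.23 (SE), limma, adjusted p = 0.187). Both encode pocket proteins of the retinoblastoma family, which restrain the cell cycle. Their second probes differed by 0.17 and 0.24 and were not called. The median of the list was 0.31, with 6 of the 13 differences below 0, and the gene at the median had an SE of 0.48. This median stayed above 0 in each of 19 alternatives (0.03 to 0.42). These alternatives used the same 6 arrays, so the kept sign is a description only. The mean of the list ran from -0.79 to -0.69 in WT and from -0.66 to -0.34 in KO mice (two-sided exact permutation p = 0.1, the smallest that 3 against 3 allows). The gap was narrow, and 1 of the 15 genes in this mean was above background on no array. That gene read -8.32 to -7.78 in WT and -7.60 to -6.78 in KO mice. WT mouse 3 and KO mouse 1 had the closest list means (-0.69 and -0.66), and that gene read -7.78 and -6.78 in them. Without that gene the mean of KO mouse 1 falls below that of WT mouse 3. The separation of the list means therefore rests on a probe below background.

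The brown and general adipocyte genes show the tissue in which the members were measured. All 21 brown adipocyte markers and all 21 genes of adipocytes in general were above background on every array. *Ucp1* ran from 5.51 to 5.85 in WT mice, with all 6 spots marked. KO mice 1 (5.10) and 2 were again below the WT mice and KO mouse 3 (5.65) was not, and the difference with marked spots kept was -0.38 ± 0.22 (SE), not called. Of the brown markers, 13 were tested, 3 were lower and 0 higher, with a median of -0.02. *Otop1* differed by -0.63 ± 0.18 (SE, limma, adjusted p = 0.167), the muscle-type fatty acid importer of mitochondria *Cpt1b* by -0.58 ± 0.22 (SE, limma, adjusted p = 0.260), and the cytochrome oxidase subunit *Cox7a1* by -0.78 ± 0.29 (SE, limma, adjusted p = 0.282) over 4 unmarked values. *Cox7a1* differed by -0.50 with marked spots kept, by -0.24 after quantile normalization and by -0.17 in the authors' processed values. After quantile normalization 1 of the 13 brown markers was lower and 1 higher. The other *Otop1* probe differed by 0.05. With marked spots kept, all 21 brown markers could be tested, 3 were lower and 0 higher, and the median was -0.34, against -0.06 over all genes. In the general adipocyte list, 12 genes were tested, 0 were lower and 0 higher at an unadjusted p under 0.05 with limma (median -0.13). With marked spots kept, 21 were tested, 2 were lower and 0 higher (median -0.29). After quantile normalization the medians over the 13 brown and 12 general genes tested without marked spots were 0.06 and 0.12. The sign of the medians over these genes thus turned with the scaling. Medians over all 21 genes of each list were not taken after quantile normalization.

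Skeletal muscle RNA varied between mice of 1 genotype. The mean of 20 muscle markers was 2.42, 1.59 and -4.50 in WT and 0.01, 3.42 and 1.45 in KO mice (two-sided exact permutation p = 0.7). WT mouse 3 was lowest, and the part of this in the members' values was not tested. Of the other cell types, 2 of 9 nerve markers tested were lower and 0 higher, 1 of 8 fibroblast markers was lower, 1 of 5 erythroid markers was higher, and 0 of 9 endothelial and 0 of 3 mesothelial markers were called at an unadjusted p under 0.05 with limma. The mesothelial mean ran from -5.84 to -5.42 in WT and from -5.40 to -5.00 in KO mice (exact permutation p = 0.1), with 3 of its 8 markers above background on no array.

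**Figure D3:**
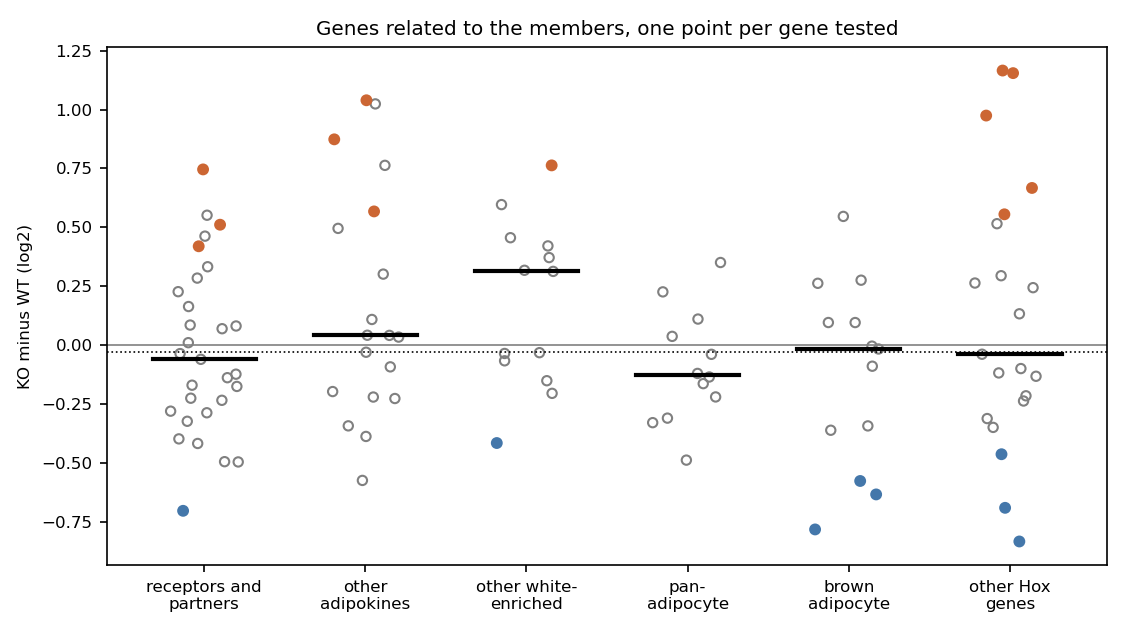
KO minus WT difference (log2, vertical axis) of each tested gene in 6 lists that exclude the 10 genes. Filled points were called higher (orange) or lower (blue) at an unadjusted p under 0.05 with limma, open points were not called, thick bars are list medians (-0.06, 0.04, 0.31, -0.13, -0.02 and -0.04 from left to right) and the dotted line is the median of all genes (-0.03).

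The other *Hox* genes were set beside *Hoxc8*, *Hoxc9* and *Hoxc10*, since paralog groups with higher numbers act further back along the body. Of the 23 genes in groups 1 to 8, 19 were above background on all 6 arrays and 2 on none. Of the 16 genes in groups 9 to 13, 3 were above background on all arrays (*Hoxa9*, *Hoxb9* and *Hoxc9*) and 10 on none. *Hoxc10* belonged to the 10. In the Hox C cluster itself, all 4 genes of groups 1 to 8 were above background everywhere, whereas *Hoxc11* and *Hoxc12* were so in no mouse and *Hoxc13* in 1.

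Of the 36 other *Hox* genes, 21 were tested, 3 were lower and 5 higher in KO mice, with a median of -0.04. The lower genes were *Hoxc5* (-0.69 ± 0.16 (SE), limma, adjusted p = 0.124), *Hoxd3* (-0.83 ± 0.23 (SE), limma, adjusted p = 0.153) and *Hoxb8* (-0.46 ± 0.16 (SE), limma, adjusted p = 0.219). *Hoxd3* was dim and well above background in only 2 KO mice. The other *Hoxb8* probe overlapped between the genotypes (-0.40 ± 0.20 (SE)) and was not called. *Hoxc5* is in the same cluster as *Hoxc8*, and *Hoxb8* is its paralog in the Hox B cluster. *Hoxa2* read -4.12, -3.83 and -3.68 in WT and -2.88, -2.89 and -2.93 in KO mice, a difference of 0.97 ± 0.17 (SE, limma, adjusted p = 0.0873). *Hoxa9*, the Hox A paralog of *Hoxc9*, differed by 1.17 ± 0.24 (SE, limma, adjusted p = 0.106), and its other probe by 1.11. *Hoxd4* differed by 0.67 ± 0.17 (SE, limma, adjusted p = 0.140). This list thus held calls in both directions, with 6 lower and 5 higher after quantile normalization.

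**Figure D4:**
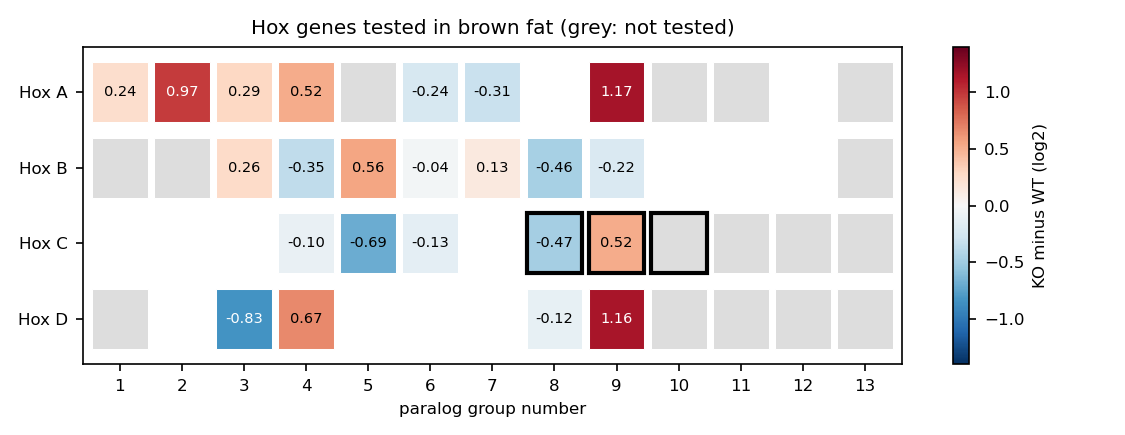
KO minus WT difference (log2, colour and printed value) of the tested *Hox* genes by cluster (rows) and paralog group number (columns). Grey cells were not tested and the 3 framed cells are *Hoxc8* (-0.47), *Hoxc9* (0.52) and *Hoxc10* (not tested), with 19 of the 23 genes in groups 1 to 8 and 4 of the 16 in groups 9 to 13 tested.

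*Wfdc21* and the miR-22 locus are both on chromosome 11, with 144 protein-coding genes between them in the RefSeq order. The genes around *Wfdc21* were therefore examined, a choice made after its values were seen. Of its 10 neighbours on each side, 15 were tested, 3 were higher and 2 were lower, with differences from -0.81 to 2.24. *Ccl4*, a chemokine 3 genes away, ran from -5.40 to -4.13 in WT and from -3.07 to -1.29 in KO mice, a difference of 2.24 ± 0.53 (SE, limma, adjusted p = 0.127). Its neighbour *Ccl3* overlapped between the genotypes (1.04 ± 0.66 (SE)). The nearest tested neighbours on either side were *Wfdc18* (-0.13 ± 0.42 (SE)) and *Heatr6* (0.07 ± 0.16 (SE)), and neither was called. *Acaca*, the enzyme that starts fatty acid synthesis, differed by -0.68 ± 0.17 (SE, limma, adjusted p = 0.150) and lay 7 genes away on the other side. *Ccl9* (0.40) and *Tada2a* (0.63) were the other genes called higher, and *Aatf* (-0.81) was the other called lower.

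Among 17 other genes named *Wfdc*, 4 were tested, 2 were higher and 0 lower, and 10 were not above background on any array. Both higher genes were dim. *Wfdc3* had 2 probes, which differed by 1.51 ± 0.30 (SE, limma, adjusted p = 0.102) and 0.35 ± 0.30 (SE). The first of these was above background in 1 WT and 2 KO mice. *Wfdc12* differed by 0.99 ± 0.42 (SE, limma, adjusted p = 0.300), with 1 high KO mouse (-3.84) and the other KO mice at -5.18 and -5.10. *Wfdc17*, which lies beside *Wfdc18*, had 3 marked spots of 6 and read 0.39, 0.08 and 0.36 in WT and -0.40, 0.23 and -0.56 in KO mice. *Wfdc21* was therefore the only *Wfdc* gene that was above background on all 6 arrays and called.

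**Figure D5:**
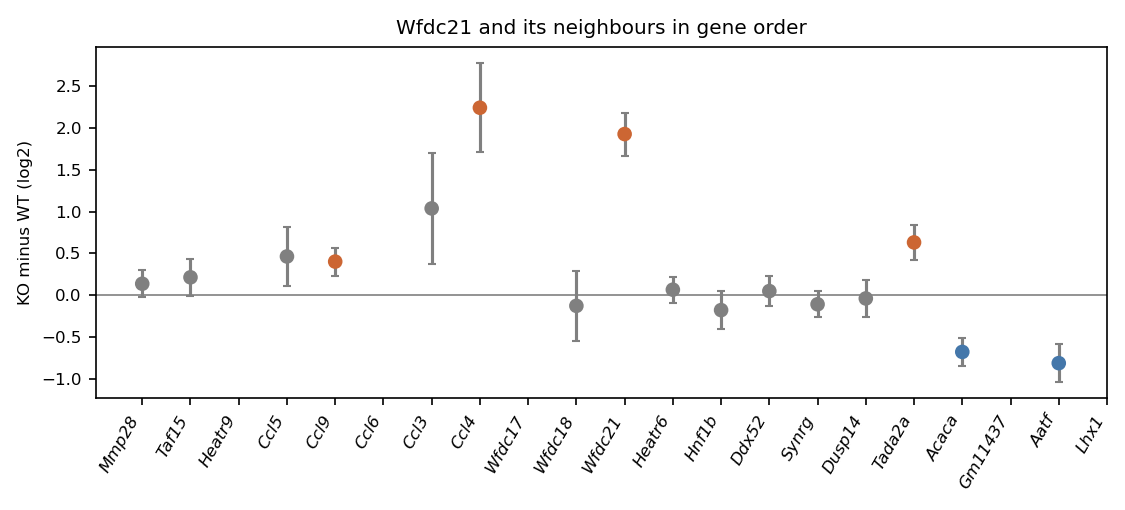
KO minus WT difference (log2, vertical axis, bars of 1 standard error) of *Wfdc21* and 10 protein-coding genes on each side, in RefSeq gene order (horizontal axis, not to distance). Orange and blue points were called higher and lower at an unadjusted p under 0.05 with limma, grey points were not called, and places without a point were not tested. *Wfdc21* (1.93) stands between *Wfdc18* (-0.13) and *Heatr6* (0.07), and *Ccl4* (2.24) lies 3 genes to the left.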

How the data were processed

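The authors deposited, per the file headers, the scanner output of 6 Agilent arrays with spot intensity values (Feature Extraction 11.5.1.1 in the headers, 10.7 in the submitters' processing notes), and a table of log2 values for 27497 probes whose columns had medians of 8.82 to 8.85 and whose scaling is not given in the sources used here. Signals were scaled to the 75th percentile over the non-control spots of the array and then taken as log2. Probes were matched through their RefSeq accession (33767 of 56605; GRCm38.p6). KO and WT mice were compared, unpaired, with lmFit and eBayes of limma 3.58.1 in R 4.3.3, two-sided, with Benjamini-Hochberg adjustment over all tested probes. A gene was counted by its brightest testable probe, ranked with marked spots kept. Marker lists were averaged per mouse with marked spots kept and compared with exact permutation tests. All members were named. From each list of related genes, at most 3 called genes per direction with the smallest p were named, with the receptors and partners that a member's account needed. The members and lists were chosen with earlier results of these data known. The fit was tested on simulated data. Alternatives were quantile or median scaling, normexp (offset 50), the authors' values, other filters, marked spots kept, 1 probe per gene, eBayes with trend and robust, the methods' t-test, SAM, the slide row as a block or within the row, and leaving out each mouse. All arrays were on 1 slide, where row 1 held WT mice 1 and 2 and row 2 the other 4. Their number limits the precision. A limma p-value sets a difference against the spread between these mice, with variance information shared across probes. An exact permutation p-value ranks the observed split among all splits of the 6 mice.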

Additional observations from a re-analysis of the deposited data

How the results depend on the processing

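The count of member probes called lower in KO mice, 0, became 1 with quantile normalization, normexp, the authors' processed values and marked spots kept, and ran from 0 to 1 when each mouse was left out; that probe was *Hoxc8* each time. The count called higher, 1, became 2 with quantile normalization (with the second *Retn* probe) and with the slide row as a block (with *Lep*), and ran from 1 to 2 when each mouse was left out (with *Agt*, without KO mouse 1). The median over the members kept its sign in 19 of 19 alternatives, from 0.02 to 0.45. These alternatives used the same 6 arrays that chose the genes, so the kept sign is a description only. *Retn* turned sign in 6 of 19, between -0.28 and 0.32, and *Sfrp5* in 2 of 19. The row block compares 1 WT mouse with 3 KO mice, and *Hoxc8* and the second *Retn* probe have no value there. No paired analysis was possible because the labels give the mice no numbers shared between genotypes. Signal close to background limits *Lep*, *Hoxc9* and *Hoxc10*, and marked spots limit *Adipoq* and *Cfd*.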
